A study of Macaca mulatta with 43 samples.

Results

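The genes described here carry newly made proteins into the endoplasmic reticulum (ER) and from there to the Golgi apparatus. They were taken by symbol: the SEC11, SEC13, SEC16, SEC22 to SEC24, SEC31 and SEC61 to SEC63 genes, SAR1, the SSR, SPCS, COPI coat, TRAPPC, TMED, KDELR and LMAN genes, and the ARF and ARL GTPases. The rule matched 138 probesets of 66 genes, and each gene was represented by the probeset with the highest mean over all arrays. All 66 of these probesets passed the filter on low values, among 24151 tested probesets of 13705 genes. Symbols with ARL as their first letters also took in ARL2BP, ARL6IP4, ARL6IP6 and ARL14EP, which are named for binding ARL proteins.

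Gene expression was measured on 3′ microarrays in medial prefrontal cortex (PFC) of 43 adult male rhesus macaques, with 1 array per animal and RNA of Brodmann areas 24, 25 and 32 pooled within each animal. The comparison asks how expression differs after chronic open-access drinking in a primate. The 32 ethanol-drinking animals were trained to drink by schedule-induced polydipsia and then had open access to an ethanol solution and water for about a year. The 11 controls, labelled water controls, had water and a daily maltose dextran solution matched in calories to a drinker. Cohort 4 held 11 drinkers and no control. Cohort 5 held 8 drinkers and 5 controls, cohort 7a held 8 drinkers and 4 controls, and cohort 7b held 5 drinkers and 2 controls. RNA of cohorts 4 and 5 was extracted with a different kit from that of cohorts 7a and 7b, and these pairs of cohorts were also processed in separate batches, so that kit, processing and cohort pair cannot be told apart.

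Proteins bound for secretion, for the cell surface or for synaptic membranes enter the ER through the SEC61 channel, lose their signal peptide to the signal peptidase, and leave in vesicles coated with the COPII complex. TRAPP complexes and SNARE proteins bring these vesicles to the Golgi, where COPI-coated vesicles and KDEL receptors return escaped ER proteins. ARF and ARL proteins are small GTPases that recruit coats and tethers to Golgi and other membranes, and in neurons this route supplies receptors and channels to distant dendrites and axons.

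More of these genes were lower in drinkers than were higher. In the model with cohort as a block, 29 of the 66 genes fell and 9 rose at an adjusted p under 0.05, with 28 not called. The 29 genes that fell are 43.9% of the list, where 21.5% of all tested probesets and 20% of genes with 1 probeset each fell. The 9 that rose are 13.6% of the list, where 11.8% of probesets and 13.2% of genes rose. The median difference of the 66 genes was -0.12 on the log2 scale, beside -0.03 over all genes, and 45 of them were below 0. Differences are ethanol minus control throughout, so a negative value is lower in drinkers, and a difference of 1 is a doubling. With each array first centred on its own median, 10 of the 66 genes rose and 26 fell, and all tested probesets then split into 3895 higher and 3687 lower, beside 2842 higher and 5202 lower without centring.

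The differences lay in cohorts 7a and 7b. In cohort 5, 0 of the 66 genes and 0% of tested probesets were called in either direction by limma, and 3 genes had an unadjusted p under 0.05, as did 731 of all tested probesets. In cohort 7a, 7 genes rose, beside 10.6% of probesets and 11.9% of genes, and 25 fell (37.9%), beside 20.3% of probesets and 18.4% of genes. In cohort 7b, 8 genes rose (12.1%), beside 14% of probesets and 15.2% of genes, and 33 fell (50%), beside 26.1% of probesets and 26.6% of genes. Cohort 7b had the most negative median difference of the list, -0.34, with -0.14 for cohort 7a and 0.01 for cohort 5, where the medians over all genes were -0.06, -0.05 and 0.01. Of the 66 genes, 27 were called in both cohort 7a and cohort 7b, 23 lower and 4 higher with 0 in opposite directions. Of these 27, 26 had the larger difference in cohort 7b. Among all tested probesets 30.9% were called in cohort 7a and 40.1% in cohort 7b. The shares of all genes called in both cohorts, or with the larger difference in cohort 7b, were not counted, so these counts describe the list alone.

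The difference between cohorts was itself tested. Set against the difference in cohort 5, the mean difference of cohorts 7a and 7b was more negative for 31 of the 66 genes (47%) and more positive for 6 (9.09%), beside 21.3% and 10.3% of probesets and 21.4% and 10.9% of genes. In cohort 7a every drinker was below every control for 13 genes (19.7%) and above for 2 (3.03%), beside 5.79% and 5.02% of genes. In cohort 7b, with 2 controls, this held for 32 genes below (48.5%) and 9 above (13.6%), beside 28.4% and 16.6% of genes. In cohort 5 it held for 0 of the 66 genes in either direction, beside 0.0657% of genes below and 0.124% above. The 13 genes below every control in cohort 7a were ARL1, ARL6IP6, COPG2, SAR1B, SEC23A, SEC24B, SEC61B, SEC61G, SPCS1, SPCS2, SSR2, TRAPPC13 and TRAPPC2, and all 13 were also below every control in cohort 7b. KDELR1 and SEC31B were above every control in both cohorts. The shares of all genes apart in both cohorts were not counted.

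**Figure D1:**
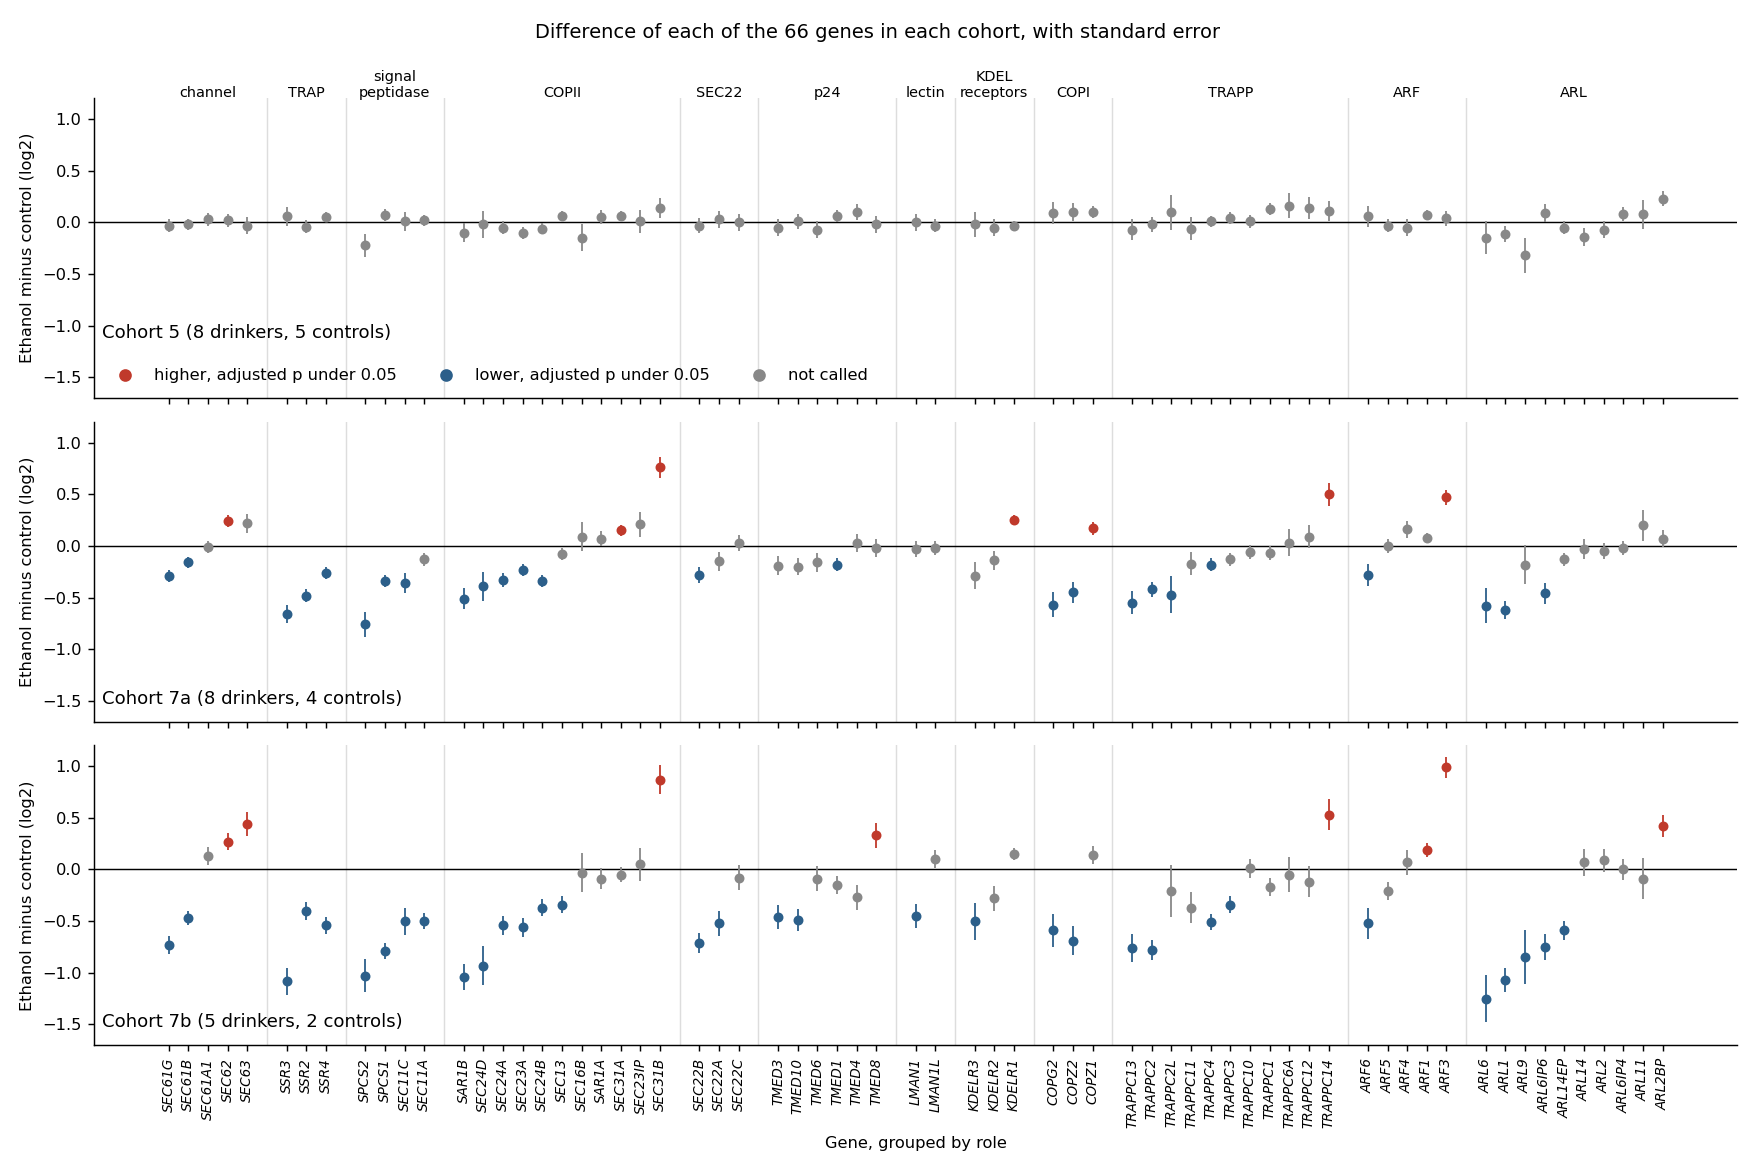
Difference between drinkers and controls (log2, vertical axis) for each of the 66 genes, grouped by role along the horizontal axis, in cohorts 5, 7a and 7b from top to bottom. Points are fitted differences with standard error bars, red where higher and blue where lower at an adjusted p under 0.05. Cohort 5 has no coloured point, and the blue points reach from -0.76 in cohort 7a and -1.25 in cohort 7b.

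On the probesets used, the channel genes split in direction. SEC61G and SEC61B, the small subunits of the SEC61 channel, fell. SEC62 and SEC63, which work with the channel on proteins that enter after their synthesis, rose on these probesets alone. SEC61A1, the pore subunit, differed by 0.04 ± 0.04 (SE, adjusted p = 0.504). SEC61G values in cohort 7a were 9.70 to 9.95 in drinkers (median 9.90), against 9.95, 10.18, 10.23 and 10.25 in controls. In cohort 7b they were 10.05, 10.24, 10.26, 10.49 and 10.11 in drinkers, against 10.93 and 10.99 in controls. Drinkers were below controls without overlap in both cohorts, although in cohort 7a the nearest animals were equal to 2 decimals. In cohort 5 the values were 9.85 to 10.03 in drinkers (median 9.99), against 10.14, 9.93, 9.89, 10.01 and 10.03 in controls, and the groups overlapped. The SEC61G difference over all cohorts was -0.26 ± 0.06 (SE, adjusted p = 0.0004), with -0.29 in cohort 7a and -0.73 in cohort 7b, and that of SEC61B was -0.16 ± 0.04 (adjusted p = 0.0024). SEC62 was higher by 0.15 ± 0.04 (adjusted p = 0.00389) and SEC63 by 0.16 ± 0.06 (adjusted p = 0.0412). Neither of these rises was shared by another probeset. The other SEC62 probesets were at -0.24, called lower, and at -0.12, not called, and both were called lower in cohorts 7a and 7b. The second of these, with a mean of 10.9 beside 11.4 for the probeset used, was at -0.26 in cohort 7a and -0.27 in cohort 7b. The mean of the SEC62 probesets gave -0.07. The other probesets of SEC63 lay between -0.04 and 0.02. The call of SEC63 was lost in 9 of the 16 fits that each left out 1 animal.

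All 3 measured subunits of the translocon-associated protein complex (TRAP) fell in the model over all cohorts and in cohorts 7a and 7b. Of all genes, 20% fell in that model, 18.4% in cohort 7a and 26.6% in cohort 7b. TRAP sits beside the channel and helps some signal sequences open it. SSR3, the gamma subunit, had values of 8.87 to 9.68 in cohort 7a drinkers (median 9.19), against 9.74, 9.63, 9.95 and 10.16 in controls. In cohort 7b SSR3 measured 9.29, 9.49, 9.57, 9.23 and 9.39 in drinkers, against 10.57 and 10.38 in controls. Drinkers and controls stood apart in cohort 7b, and in cohort 7a only the highest drinker reached into the control range. In cohort 5 SSR3 lay at 8.64 to 8.87 in drinkers (median 8.73), against 8.78, 8.69, 8.59, 8.63 and 8.74 in controls. These ranges overlapped, with the highest value in a drinker. The SSR3 difference was -0.44 ± 0.09 over all cohorts (SE, adjusted p = 0.000322), 0.06 within cohort 5, -0.66 within 7a and -1.08 within 7b, and the difference between cohorts, -0.93 (adjusted p = 1.25e-07), was the most negative of the 66 genes. SSR2, the beta subunit, was lower, at -0.28 ± 0.05 (adjusted p = 8.59e-05), and 2 of its 3 other probesets were called lower too. SSR4, the delta subunit, was lower, at -0.18 ± 0.05 (adjusted p = 0.00405), with -0.26 in cohort 7a and -0.54 in cohort 7b.

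All 4 measured genes of the signal peptidase also fell, where 20% of all genes fell. SPCS2, an accessory subunit, had the largest fall of the 66 genes over all cohorts, -0.58 ± 0.09 (SE, adjusted p = 1.41e-05). Its values in cohort 7a were 8.28 to 8.88 in drinkers (median 8.53), against 9.24, 9.30, 9.33 and 9.28 in controls. In cohort 7b they were 9.17, 8.94, 9.20, 9.18 and 9.21 in drinkers, against 10.41 and 9.93 in controls. Every drinker was below every control in both cohorts, and the drinkers of cohort 7b lay close together apart from 1 lower animal. In cohort 5 SPCS2 measured 7.27 to 8.01 in drinkers (median 7.62), against 7.62, 7.95, 7.96, 7.97 and 7.76 in controls, with overlap and a difference of -0.22 ± 0.11 (adjusted p = 1). SPCS1, another accessory subunit, had 11.24 to 11.49 in cohort 7a drinkers (median 11.37), against 11.62, 11.71, 11.76 and 11.74 in controls. Its cohort 7b values were 11.42, 11.78, 11.68, 11.53 and 11.66 in drinkers, against 12.50 and 12.30 in controls, so SPCS1 too did not overlap in either cohort. SPCS1 was lower, at -0.25 ± 0.06 over all cohorts (adjusted p = 0.00185). The catalytic subunits SEC11C and SEC11A were lower, at -0.23 ± 0.07 (adjusted p = 0.00751) and -0.14 ± 0.05 (adjusted p = 0.0167). Both other probesets of SEC11A were called lower, whereas those of SEC11C lay at 0.00 to 0.10 and were not called.

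**Figure D2:**
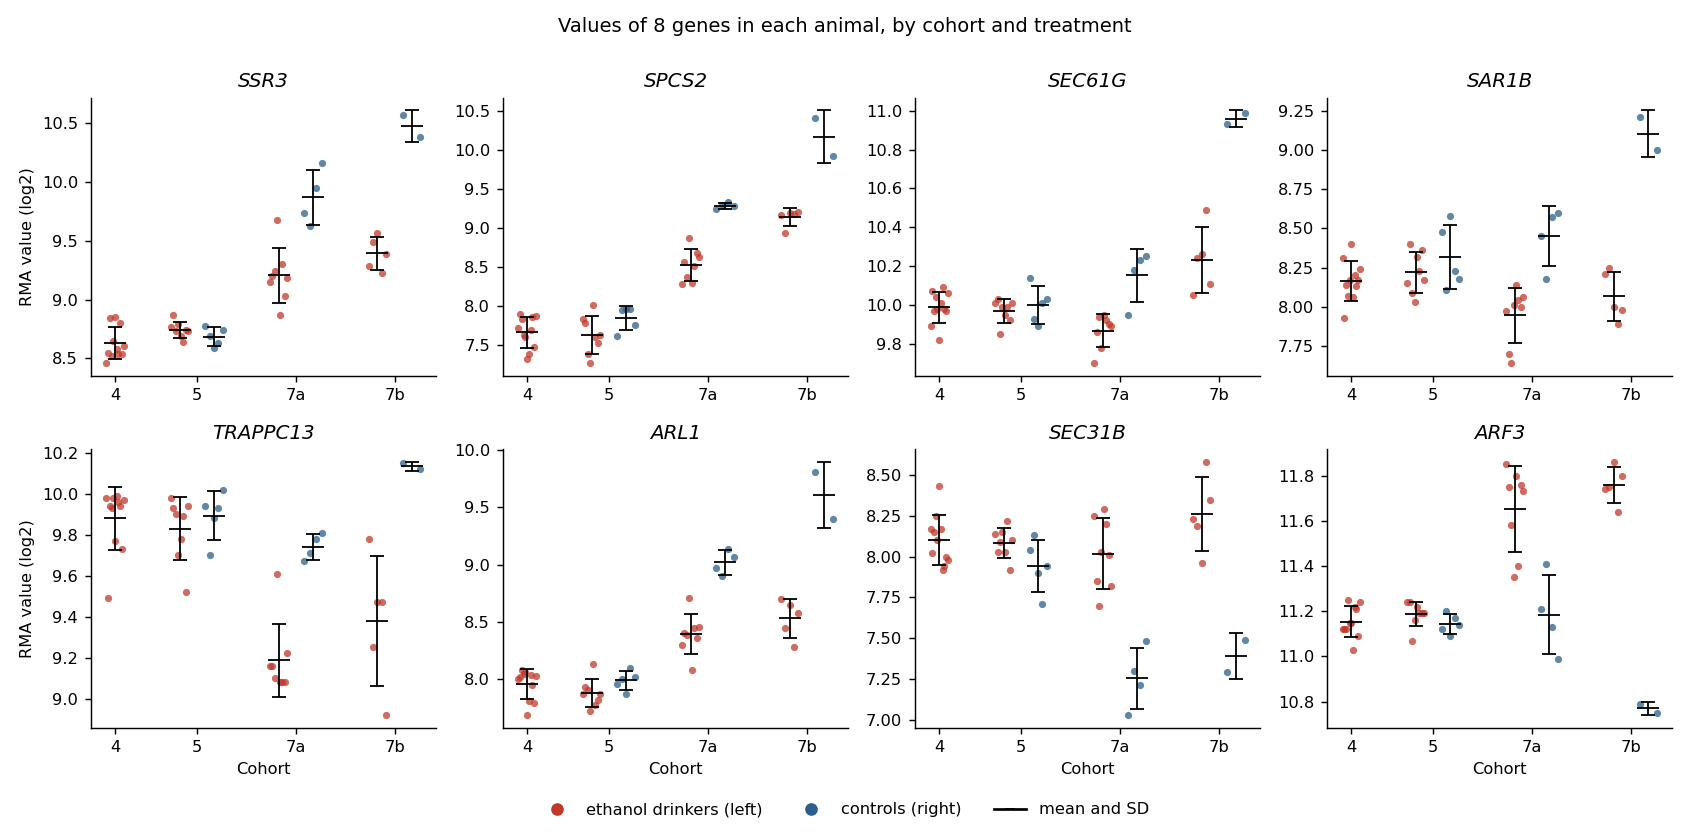
RMA values (log2, vertical axis) of 8 genes in each animal, by cohort, with drinkers in red on the left and controls in blue on the right, and bars for the mean and SD; cohort 4 has no control. Drinkers and controls overlap in cohort 5 for all 8 genes. In cohort 7b the drinkers are below the controls for SSR3, SPCS2, SEC61G, SAR1B, TRAPPC13 and ARL1 and above them for SEC31B and ARF3.

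Of the 11 COPII genes, 5 fell and 1 rose, beside 20% and 13.2% of all genes. SAR1B, a GTPase that starts assembly of the coat, had the largest fall of these, with values of 7.64 to 8.14 in cohort 7a drinkers (median 8.0), against 8.45, 8.18, 8.57 and 8.60 in controls. In cohort 7b SAR1B measured 8.21, 8.25, 8.0, 7.89 and 7.98 in drinkers, against 9.21 and 9.0 in controls. There was no overlap in either cohort, and the gap was wider in cohort 7b. The difference was -0.44 ± 0.08 over all cohorts (SE, adjusted p = 8.68e-05), -0.10 within cohort 5, -0.51 within 7a and -1.04 within 7b. Of the 4 other SAR1B probesets, 3 were called lower, down to -0.68, and the dimmest was at -0.02. Its near copy SAR1A differed by 0.03 ± 0.04 (adjusted p = 0.678), and its second probeset was called higher at 0.15. The array design gives the 2 genes separate probesets, and the part of shared sequence in these values was not tested.

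The inner coat genes fell as well. SEC23A, the coat subunit that activates the SAR1 GTPase, was lower, at -0.24 ± 0.05 (SE, adjusted p = 0.000184), and its other probeset was lower, at -0.47. SEC23A in cohort 7a lay at 9.98 to 10.24 in drinkers (median 10.07), against 10.31, 10.25, 10.38 and 10.28 in controls. Its cohort 7b values were 10.26, 10.20, 10.15, 10.02 and 9.93 in drinkers, against 10.61 and 10.73 in controls. The groups did not overlap in either cohort, though in cohort 7a they nearly touched. The cargo-binding subunits SEC24A, SEC24B and SEC24D were lower, at -0.25 ± 0.05 (adjusted p = 0.000224), -0.22 ± 0.04 (adjusted p = 0.000113) and -0.34 ± 0.10 (adjusted p = 0.00582). SEC13 of the outer coat differed by -0.07 ± 0.04 over all cohorts (adjusted p = 0.179) and was called in cohort 7b alone among the 3 cohorts, at -0.34 (adjusted p = 0.000392).

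SEC31B, one of the pair of SEC31 outer coat genes, had the largest rise of the list. Its values in cohort 7a were 7.70 to 8.29 in drinkers (median 8.02), against 7.03, 7.30, 7.21 and 7.48 in controls. In cohort 7b SEC31B measured 8.23, 8.19, 7.96, 8.58 and 8.35 in drinkers, against 7.29 and 7.49 in controls. Every drinker was above every control in both cohorts, and the 6 controls of these cohorts were below all 37 other arrays of the study. Cohort 5 values were 7.92 to 8.22 in drinkers (median 8.09), against 8.04, 8.13, 7.90, 7.71 and 7.94 in controls, where the groups overlapped, and those of cohort 4 drinkers were 7.92 to 8.43 (median 8.10). The difference was 0.52 ± 0.08 over all cohorts (SE, adjusted p = 1.87e-05), 0.76 in cohort 7a and 0.87 in cohort 7b. This rests on 1 probeset: the dimmer second SEC31B probeset was at -0.06 (adjusted p = 0.384). SEC31A, the SEC31 gene of most tissues, differed by 0.07 ± 0.04 (adjusted p = 0.126).

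Controls of cohorts 7a and 7b stood beyond all 37 other arrays for 4 of the 66 genes, above them for ARL1, SPCS2 and SSR2 (4.55%, beside 1.02% of genes) and below them for SEC31B (1.52%, beside 1.57% of genes). These counts set cohorts of different kits against each other, and the part of the kit in them was not tested.

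Of the 11 cargo and retrieval receptors, 3 fell and 1 rose, near the 20% and 13.2% of all genes that fell and rose. Among the p24 proteins, which take part in selecting cargo for vesicles between the ER and the Golgi, TMED3 and TMED10 were lower, at -0.19 ± 0.06 (SE, adjusted p = 0.0106) and -0.17 ± 0.05 (adjusted p = 0.0171), and the other 4 were not called. TMED10 in cohort 7b measured 9.23, 9.10, 9.47, 8.92 and 9.29 in drinkers, against 9.72 and 9.66 in controls. In cohort 7a it lay at 8.90 to 9.25 in drinkers (median 9.13), against 9.19, 9.21, 9.32 and 9.52 in controls. TMED10 groups were apart in cohort 7b and overlapped in cohort 7a, and its other probeset was called lower at -0.45. LMAN1, the lectin ERGIC-53 that carries glycoproteins out of the ER, differed by -0.10 ± 0.06 (adjusted p = 0.192) over all cohorts and by -0.45 in cohort 7b (adjusted p = 0.00165).

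Of the 3 KDEL receptors, KDELR1 rose, KDELR3 fell and KDELR2 was not called. KDELR1 in cohort 7a was 10.52 to 10.78 in drinkers (median 10.67), against 10.32, 10.45, 10.41 and 10.50 in controls. In cohort 7b it was 10.61, 10.61, 10.59, 10.68 and 10.50 in drinkers, against 10.46 and 10.43 in controls. The groups did not overlap in either cohort, but the distances were small, and the difference over all cohorts was 0.11 ± 0.03 (SE, adjusted p = 0.0131). The second KDELR1 probeset was not called over all cohorts, at 0.15 (adjusted p = 0.265). It was called higher in cohort 7a, at 0.41 (adjusted p = 0.0204), and in cohort 7b, at 0.51 (adjusted p = 0.0277). KDELR3 was lower, at -0.21 ± 0.08 (adjusted p = 0.0413) and lost the call in 8 of the 16 fits that left out 1 animal. KDELR2 differed by -0.13 ± 0.05 (adjusted p = 0.0606) on its brightest probeset, while its 3 other probesets were called lower, at -0.49 to -0.15.

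COPI coat genes gave both directions. COPG2, a gamma subunit, and COPZ2, a zeta subunit, were lower, at -0.29 ± 0.09 (SE, adjusted p = 0.00968) and -0.26 ± 0.08 (adjusted p = 0.00861), and COPZ1, the other zeta subunit, was higher by 0.14 ± 0.04 (adjusted p = 0.00506). COPG2 measured 5.52 to 6.08 in cohort 7a drinkers (median 5.78), against 6.35, 6.23, 6.28 and 6.52 in controls. In cohort 7b it measured 6.32, 6.16, 6.28, 5.58 and 5.86 in drinkers, against 6.33 and 6.94 in controls. Drinkers were below controls in both cohorts, though in cohort 7b the ranges nearly touched. The second probeset of each of these 3 genes was not called, at -0.03 for COPG2, 0.00 for COPZ2 and -0.04 for COPZ1.

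SEC22B, a SNARE of ER to Golgi vesicles, fell, and SEC22A and SEC22C were not called over all cohorts. SEC22A was called lower in cohort 7b, at -0.52 (adjusted p = 0.00035), with every drinker below every control. Of the 4 other SEC22C probesets, 2 were called lower over all cohorts, at -0.14 and -0.33. SEC22B values in cohort 7b were 9.35, 9.47, 9.71, 9.20 and 9.43 in drinkers, against 10.24 and 10.05 in controls. In cohort 7a SEC22B was 9.48 to 9.88 in drinkers (median 9.57), against 9.75, 9.97, 10.06 and 9.82 in controls. The groups were apart in cohort 7b and overlapped in cohort 7a, and the difference over all cohorts was -0.26 ± 0.06 (SE, adjusted p = 0.000888), with the other probeset at -0.35.

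Of the 11 TRAPP genes, 3 fell, 1 rose and 7 were not called over all cohorts, near the 20% and 13.2% of all genes that fell and rose. Among these 7, TRAPPC2L was called lower in cohort 7a, at -0.47, and TRAPPC3 in cohort 7b, at -0.34. The other probeset of TRAPPC3 was called lower over all cohorts, at -0.35. TRAPPC13, a subunit of the larger TRAPP complexes, lay at 9.08 to 9.61 in cohort 7a drinkers (median 9.13), against 9.67, 9.71, 9.78 and 9.81 in controls. Its cohort 7b values were 9.78, 9.25, 9.47, 9.47 and 8.92 in drinkers, against 10.15 and 10.12 in controls. Drinkers were lower without overlap in both cohorts. The TRAPPC13 difference was -0.38 ± 0.08 over all cohorts (SE, adjusted p = 0.000241), and all 3 other probesets were called lower, at -0.52 to -0.39. TRAPPC2, a core subunit, was lower, at -0.32 ± 0.06 (adjusted p = 0.000162) and also did not overlap in either cohort, and TRAPPC4, another core subunit, was lower, at -0.16 ± 0.05 (adjusted p = 0.00637). TRAPPC14 was higher by 0.34 ± 0.07 (adjusted p = 0.000549). In cohort 7b TRAPPC14 measured 7.01, 7.09, 7.10, 7.51 and 7.23 in drinkers, against 6.63 and 6.69 in controls, with no overlap. In cohort 7a it measured 6.80 to 7.48 in drinkers (median 7.24), against 6.28, 7.12, 6.50 and 6.78 in controls, where 1 high control lay within the range of the drinkers.

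Among the ARF GTPases, ARF3, an ARF of the trans-Golgi, and ARF1, which recruits COPI, rose and ARF6, an ARF of the cell surface and endosomes, fell. ARF3 in cohort 7b was 11.74, 11.75, 11.86, 11.64 and 11.80 in drinkers, against 10.79 and 10.75 in controls. In cohort 7a it was 11.35 to 11.85 in drinkers (median 11.74), against 11.21, 11.41, 11.13 and 10.99 in controls. The groups were far apart in cohort 7b and overlapped at 1 control in cohort 7a. The ARF3 difference was 0.39 ± 0.07 over all cohorts (SE, adjusted p = 8.01e-05), 0.04 within cohort 5, 0.47 within 7a and 0.99 within 7b, and its 3 other probesets were not called, at -0.01 to 0.11. ARF1 was higher by 0.10 ± 0.03 (adjusted p = 0.0193), but a second ARF1 probeset was called lower at -0.27, and the mean of its probesets gave -0.08. ARF6 was lower, at -0.18 ± 0.07 (adjusted p = 0.0497).

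Of the 10 ARL genes, 5 fell and 1 rose, beside 20% and 13.2% of all genes. ARL1, which recruits golgin tethers to the trans-Golgi, measured 8.08 to 8.71 in cohort 7a drinkers (median 8.39), against 8.97, 8.90, 9.14 and 9.07 in controls. In cohort 7b ARL1 measured 8.70, 8.45, 8.65, 8.28 and 8.58 in drinkers, against 9.81 and 9.40 in controls. Every drinker was below every control in both cohorts. In cohort 5 it was 7.72 to 8.13 in drinkers (median 7.87), against 7.96, 8.0, 7.87, 8.10 and 8.02 in controls, and the groups overlapped. The difference was -0.49 ± 0.08 over all cohorts (SE, adjusted p = 2.4e-05), -0.62 in cohort 7a and -1.07 in cohort 7b. ARL6, which brings the BBSome to the membrane at cilia, was lower, at -0.53 ± 0.12 (adjusted p = 0.0008), and its cohort 7b values of 7.23, 7.51, 6.69, 7.18 and 7.29 in drinkers, against 8.48 and 8.38 in controls, gave the most negative cohort difference of the list, -1.25. ARL9 was lower, at -0.37 ± 0.12 (adjusted p = 0.0129), ARL6IP6 at -0.28 ± 0.08 (adjusted p = 0.00433) and ARL14EP at -0.19 ± 0.05 (adjusted p = 0.00311). The probeset of ARL6IP6 carries the suffix given to probes that can match unrelated transcripts, and 1 of its 3 other probesets was called lower. ARL2BP, a binding partner of ARL2, was higher by 0.21 ± 0.05 (adjusted p = 0.00209), whereas its second probeset was called lower at -0.16. The ARL2BP difference was 0.23 ± 0.07 in cohort 5 (adjusted p = 1), 0.07 ± 0.08 in cohort 7a (adjusted p = 0.54) and 0.42 ± 0.11 in cohort 7b (adjusted p = 0.00195).

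For each called gene with more than 1 probeset, the other probesets were read as well. Of the 14 genes called lower that had other tested probesets, 10 had another called lower and 0 had one called higher. In 6 of the 14 every other probeset was called lower. ARL1, ARL6, SEC61G, SPCS1, SPCS2 and TRAPPC2 have 1 probeset each and SSR3 has 1 tested. The falls of these genes could not be compared with another probeset. Of the 8 genes called higher with other probesets, 0 had another called higher over all cohorts and 3, ARF1, ARL2BP and SEC62, had one called lower. Within cohorts 7a and 7b, the other probeset of KDELR1 was called higher, at 0.41 and 0.51, and both other SEC62 probesets were called lower. When all probesets of a gene were averaged, 30 genes fell and 3 rose, the 3 being SEC31B, ARF3 and TRAPPC14. TRAPPC14 has 1 probeset, so averaging could not change its value, and the same holds for every other gene with 1 probeset. In that fit 21.5% of all tested probesets fell and 11.7% rose, and averaging was done for the listed genes alone.

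**Figure D3:**
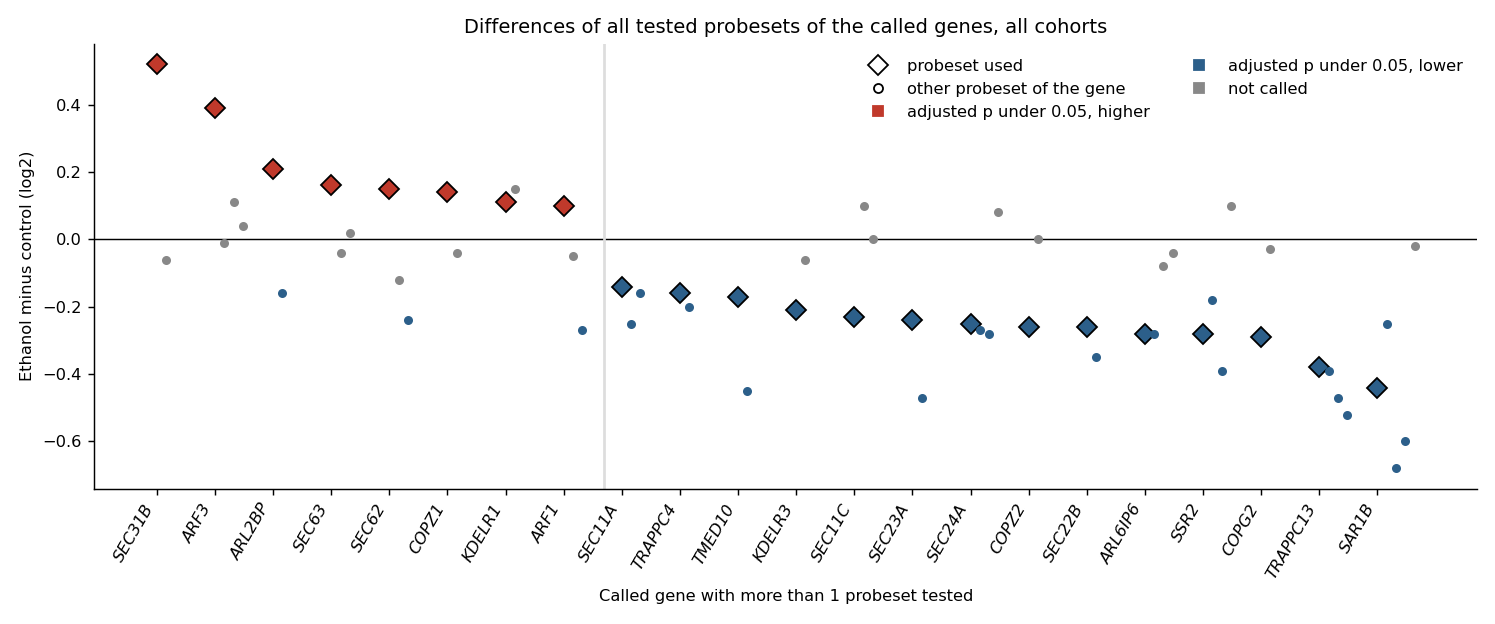
Fitted difference over all cohorts (log2, vertical axis) of every tested probeset of the called genes that have more than 1 (horizontal axis, from the largest rise to the largest fall); diamonds are the probesets used and circles the others, red and blue where higher and lower at an adjusted p under 0.05 and grey where not called. None of the circles on the side of the rises is red, and 3 are blue.

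RNA quality was compared between the groups as well. The RNA integrity numbers averaged lower in drinkers than in controls of cohorts 7a and 7b. The actin 3′ minus 5′ value of the array, higher where transcripts are shorter, was 0.93 to 1.60 in cohort 7a drinkers (median 1.31), against 0.76 to 0.87 in controls, with no overlap, and 0.76 to 1.71 in cohort 7b drinkers, against 0.75 and 0.81 in controls. In cohort 5 it was 4.36 to 4.95 in drinkers, against 4.24 to 4.74 in controls. The GAPDH 3′ minus 5′ value overlapped between the groups, at 1.09 to 1.51 in cohort 7a drinkers, against 0.96 to 1.15 in controls, and at 0.60 to 1.35 in cohort 7b drinkers (mean 0.91), against 0.95 and 1.14 in controls (mean 1.05), where it was lower on average in drinkers. With the actin value in the model beside cohort, 7 of the 66 genes rose and 17 fell (36.4% called, beside 15.6% of probesets). With the RNA integrity number in its place, 1 control of cohort 7b dropped out for want of a number, and 10 genes were called (15.2%, beside 4.89% of probesets): SEC31B and ARF3 higher and ARL1, SAR1B, SEC24A, SEC24B, SEC61G, SPCS2, SSR2 and TRAPPC13 lower. With processing batch and the integrity number together, SEC31B remained called at 0.37 ± 0.09 (adjusted p = 0.0386), beside 0.762% of probesets, and SPCS2 was at -0.32 ± 0.10 (adjusted p = 0.0864). The 38 called genes kept the sign of their difference in these 3 models, though some estimates were near 0. With batch and the integrity number, KDELR3 was at -0.01, SEC11C at -0.03 and COPG2 at -0.04. The part of RNA quality in the differences was not tested.

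**Figure D4:**
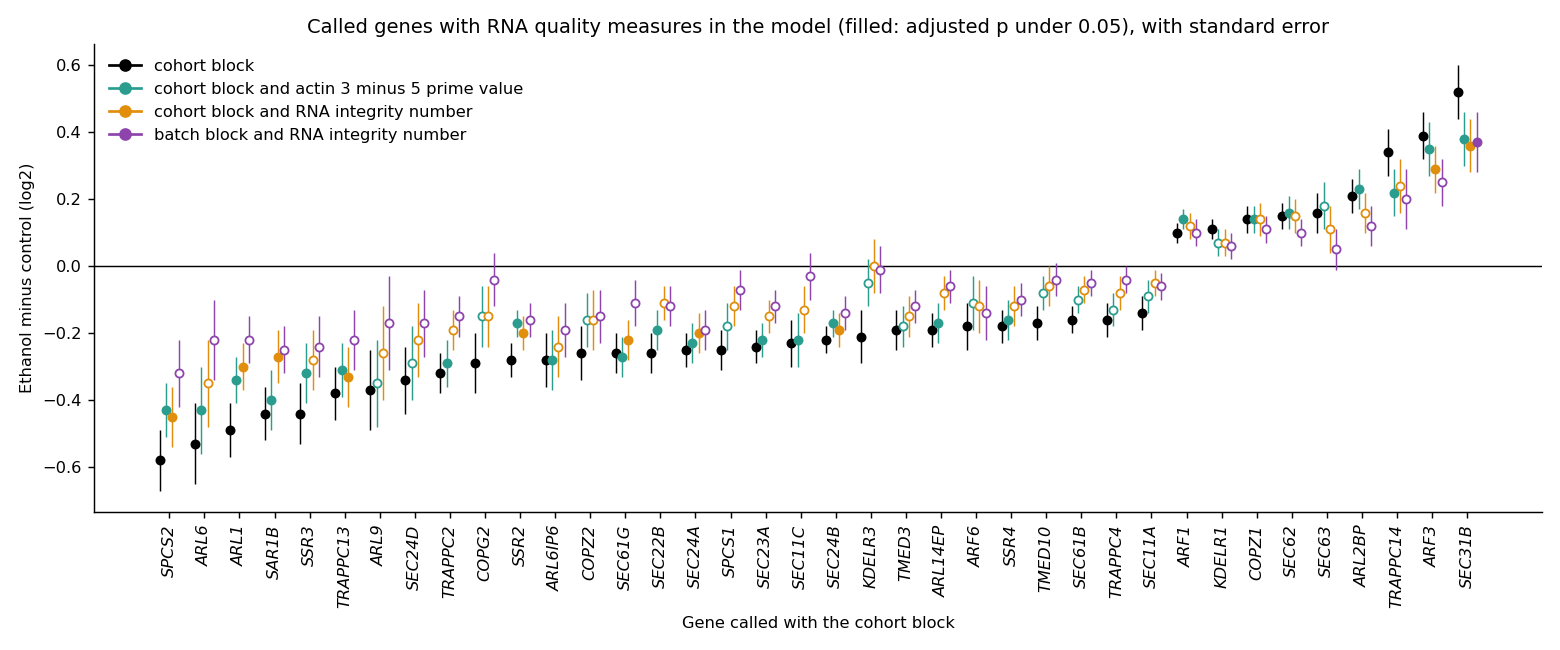
Differences over all cohorts (log2, vertical axis, with standard error) of the 38 genes called in the model with a cohort block, fitted 4 ways; filled points have an adjusted p under 0.05. Most points move toward 0 with the integrity number in the model, and with batch as well only SEC31B stays filled.

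Differences were also taken within processing batches. With batch in place of cohort as the block, 6 genes rose, beside 8.22% of all tested probesets, and 21 fell (31.8%), beside 14.4%. In the 3 batches that held cohorts 4 and 5, the median difference of the 66 genes between drinkers and controls was 0.00, -0.03 and 0.03, beside 0.00, -0.02 and 0.02 over all genes. In the 4 batches of cohorts 7a and 7b with both treatments, each with 1 or 2 controls, it was -0.08, -0.18, -0.25 and -0.26, beside -0.07, -0.03, -0.05 and -0.07 over all genes, so that in the first of these the list lay close to the median of all genes. The batch with -0.08 set 1 drinker of cohort 7a and 1 of cohort 7b against 2 controls of cohort 7a. The batch with -0.26 set 3 drinkers of cohort 7a against 1 control of cohort 7b, so treatment and cohort cannot be told apart in it. The last batch of the study held drinkers alone.

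Markers of cell types were set beside the share of all genes called over all cohorts, 20% lower and 13.2% higher. Of 8 microglia markers 4 were called lower over all cohorts and 1 higher. In cohort 7a 4 were lower and 1 higher, beside 18.4% and 11.9% of genes, and in cohort 7b 2 were lower and 1 higher, beside 26.6% and 15.2%. Their mean level in cohort 7a was 7.87 to 8.21 in drinkers, against 8.22 to 8.62 in controls, and in cohort 7b 7.94 to 8.25 in drinkers, against 8.31 and 8.38 in controls. Of 5 neuron markers 2 were higher, GAD2 by 1.10 and SLC17A7 by 0.15, and their mean level in cohort 7a was 10.93 to 11.12 in drinkers, against 10.51 to 10.80 in controls, and in cohort 7b 10.96 to 11.30 in drinkers, against 10.58 and 10.74 in controls. Of these 5, GAD2 differed by 1.51 in cohort 7a and by 2.22 in cohort 7b. The other 4, GAD1, a marker of the same inhibitory neurons, SLC17A7, STMN2 and SYT1, lay at -0.10 to 0.23 in cohort 7a and at -0.11 to 0.26 in cohort 7b, and none of them was called in either cohort. Of the astrocyte markers 1 of 5 was higher, and of 3 oligodendrocyte and 6 endothelial and mural markers 0 were called over all cohorts. Astrocyte markers split within the cohorts. In cohort 7a SLC1A2 was higher, at 0.30, and S100B lower, at -0.41. In cohort 7b GFAP and SLC1A2 were higher, at 0.84 and 0.65, and S100B lower, at -0.53. In cohort 7b 3 of the 6 endothelial and mural markers were lower, CDH5 at -0.43, PECAM1 at -0.41 and CLDN5 at -0.36, and of the oligodendrocyte markers UGT8 was lower, at -1.21, and CNP higher, at 0.18. The lowest mean of a marker over all arrays was 4.04, for FLT1, an endothelial marker. Fewer cells of a type and less RNA per cell cannot be told apart in this tissue RNA, and the part of cell makeup in the differences was not tested.

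Genes of the same route outside the symbol rule were counted in 6 lists of 88 genes in all. Over all cohorts 31 fell (35.2%) and 9 rose (10.2%), beside 20% and 13.2% of genes, and 0 were called in cohort 5. In cohort 7a 16 were lower (18.2%) and 11 higher (12.5%), near the 18.4% and 11.9% of all genes, and in cohort 7b 33 were lower (37.5%) and 8 higher (9.09%), beside 26.6% and 15.2%. The oligosaccharyltransferase, which adds glycans to proteins entering the ER, and the TRAM proteins at the channel had 7 of 11 genes lower, among them OSTC (-0.37 ± 0.08, SE, adjusted p = 0.000413), OST4 (-0.22 ± 0.06, adjusted p = 0.00715) and DAD1 (-0.17 ± 0.05, adjusted p = 0.00948), and 1 higher. ER exit and intermediate compartment factors had 6 of 14 lower, with YIPF5 at -0.41 ± 0.09 (adjusted p = 0.000346) and CNIH4 at -0.38 ± 0.09 (adjusted p = 0.000858), and 1 higher, BCAP31 at 0.21 ± 0.05 (adjusted p = 0.000544). SNAREs and tethers had 8 of 21 lower, including BET1, a SNARE partner of SEC22B, at -0.30 ± 0.07 (adjusted p = 0.000897), and 2 higher, GOLGA2 and YKT6. The signal recognition particle and its receptor had 1 of 4 lower, SRP19.

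Of 19 ARF exchange factors, GTPase activators and related proteins, 4 rose and 4 fell, beside 13.2% and 20% of all genes. ARFGAP1, which switches off ARF1 on COPI coats, was higher by 0.31 ± 0.06 (SE, adjusted p = 0.000248), and GBF1, an ARF exchange factor of the early Golgi, was higher by 0.15 ± 0.04 (adjusted p = 0.00141). CYTH1, an exchange factor of the cell surface, was lower, at -0.33 ± 0.09 (adjusted p = 0.00337). Of 19 ER chaperone and unfolded protein response genes 5 fell and 1, the chaperone CANX, rose, beside 20% and 13.2% of all genes. The 5 were DERL2, EIF2AK3, MANF, DDIT3 and HERPUD1, at -0.29 to -0.16. Among genes that carry the unfolded protein response, EIF2AK3 was lower, at -0.23 ± 0.06 (adjusted p = 0.00471). XBP1, ATF4, ATF6 and ERN1, which also carry it, were not called, at -0.02 to 0.01.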

How the data were processed

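The deposited values are log2 expression values that the authors made with RMA (affy, per the labels) over the 43 arrays, without adjustment for processing batch. Of 52865 probesets, those without a gene symbol in the platform's probe table, and those below 3.5 on 80.0% or more of the arrays, were left out, and 24151 were tested. Treatment was fitted with limma (version 3.58.1, R 4.3.3) with cohort as a block. Each cohort's difference came from a model of the 7 group means with a shared spread, and p-values were adjusted with Benjamini-Hochberg over all tested probesets. Processing batches (8) were recovered from the shift between the deposited values and the study's batch-adjusted table, and RNA integrity numbers came from its supplement. Genes named were those with the largest called changes, the leading gene of each role, the highest and lowest in level, the 5 with the smallest p for cohorts 7a and 7b against cohort 5, and genes that the study or an earlier reading of these data had named; other list genes named were chosen after their values were seen. The members and lists were chosen with earlier results of these data known. The model was tested on simulated data with the same treatment effect in every cohort and no effect of RNA quality. That test cannot show how the model behaves where effects differ between cohorts or follow RNA quality. Replicates are separate animals, whose number, above all of controls, limits precision. Other settings included no block, batch, RNA quality, array centring, array weights, filters, probeset averaging and leaving out 1 animal.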

Additional observations from a re-analysis of the deposited data

Results flagged for a closer look

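In 23 of the 35 named genes the ethanol difference of cohorts 7a and 7b departed from that of cohort 5 by limma's test of the difference itself. Among all tested probesets 21.3% departed downward and 10.3% upward, and 5 of the named genes were chosen for their small p in this test and others for their large differences, so the count of 23 is a description. The departure was upward for ARF3 (0.69), SEC31B (0.68), TRAPPC14 (0.40), SEC63 (0.36), KDELR1 (0.23) and SEC62 (0.23), with adjusted p values between 1.3e-07 for ARF3 and 0.0251 for TRAPPC14. It was downward for 17 genes. Those of the ER membrane were SSR3 (-0.93), SPCS2 (-0.67), SPCS1 (-0.64), SEC61G (-0.48), SSR4 (-0.45) and SSR2 (-0.40). Those of the coats, SNAREs and cargo receptors were COPG2 (-0.68), SAR1B (-0.67), SEC24D (-0.63), SEC22B (-0.47), TMED10 (-0.35) and SEC23A (-0.29). The tethers and ARL proteins were ARL6 (-0.76), ARL1 (-0.74), ARL6IP6 (-0.69), TRAPPC13 (-0.59) and TRAPPC2 (-0.58). Adjusted p values of these 17 lay between 5.39e-08 for SPCS1 and 0.00547 for ARL6. Cohort 5 and the pair 7a and 7b were extracted with different kits, which cannot be told apart from the cohorts.

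Single animals stood far from the rest of their group in 10 of 175 checks over the 5 groups of 4 to 10 animals, and about 1 in 20 such checks is past the limit by chance. Among drinkers, replicate 43 of cohort 7b had 8.51 for LMAN1 (nearest 8.99), replicate 40 of cohort 7b had 8.94 for SPCS2 (nearest 9.17), replicate 34 of cohort 7a had 4.00 for TMED6 (nearest 3.61), and replicate 32 of cohort 7a had 9.61 for TRAPPC13 (nearest 9.22). Among controls of cohort 7a, replicate 25 had 8.88 for LMAN1 (nearest 9.32) and 11.54 for SEC62 (nearest 11.38), and replicate 28 had 7.81 for ARL6IP6 (nearest 7.32). Among controls of cohort 5, replicate 16 had 4.01 for ARL11 (nearest 3.80) and 6.39 for ARL9 (nearest 6.95), and replicate 12 had 7.12 for TRAPPC14 (nearest 7.00).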

How the results depend on the processing

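The counts of the 66 genes over all cohorts, 9 higher and 29 lower, became 4 and 15 without a block, 4 and 13 with array weights, 2 and 8 with cohort and RNA integrity number, and 1 and 0 with batch and integrity number (limma; in that last fit 4588 of all tested probesets had an unadjusted p under 0.05). Of all tested probesets 5.57% rose and 10.6% fell without a block, and 4.43% rose and 6.28% fell with array weights. With the actin value 17 of the 66 genes were lower, beside 8.49% of probesets. With the mean of a gene's probesets 3 were higher, beside 11.7% of probesets. Leaving out 1 animal gave 7 to 9 higher and 23 to 31 lower. The list median of -0.118 became -0.079 with batch, -0.065 and -0.041 with the integrity number beside cohort and batch, -0.081 with actin, -0.075 with centred arrays and -0.082 with array weights, and -0.145 to -0.100 leaving out 1 animal. In cohort 7a the median of -0.137 became -0.070 when centred and -0.170 with batch, and -0.167 to -0.102 leaving out 1 animal. In cohort 7b the median of -0.338 became -0.291 with actin, -0.238 when centred, -0.264 with probeset means, -0.296 with the integrity number and -0.266 with batch, and -0.358 to -0.304 leaving out 1 animal. Its 8 higher genes became 5 with probeset means, 3 with the integrity number and 4 to 8 leaving out 1 animal, the 4 without control replicate 37, and its 33 lower genes became 21 with the integrity number. The 6 genes more positive in cohorts 7a and 7b than in cohort 5 became 3 with the integrity number.

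The related lists, 9 higher and 31 lower, gave 5 and 15 without a block, 3 and 1 with cohort and integrity number, 1 and 0 with batch and integrity number, 15 higher when centred, and lower counts of 19 with batch, 11 with actin, 7 with array weights and 20 to 32 leaving out 1 animal, the 20 without cohort 7b control replicate 37. Directions turned for ARF1 (-0.08) and SEC62 (-0.07) with probeset means, for ARF4 (-0.01) without a block, and for ARL6IP4 with the integrity number beside cohort (-0.02) or batch (-0.01) and with actin (-0.03). The causes were not tested.

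Fits of batch and integrity number beside the group means were chosen after seeing the data. With the integrity number, or without 1 control, cohort 7b has a single control, which is assumed to vary like the other groups. No paired analysis was possible because the replicate numbers are unique to each animal. With 11 controls in all, and 2 in cohort 7b, the number of controls limits every count.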
